A study of Homo sapiens with 3 samples.

Results

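The potassium channel genes were taken as all protein-coding genes of the hg19 annotation whose symbol begins with KCN, which gave 95 of 20163 protein-coding genes. Their chromatin was examined in PANC-1 cells, a line established from a human pancreatic ductal carcinoma, given as wild type and without a listed treatment. Chromatin immunoprecipitation followed by sequencing was performed for PHF13, whose PHD finger recognises methylated histone H3, and for EZH2, the enzyme of Polycomb repressive complex 2 (PRC2) that methylates histones, with input chromatin as the control. Each of the 3 groups had 1 library, so there was no replicate error for any value, and every comparison below is a description without a test. A peak was assigned to a gene when it lay within 5 kb of any annotated transcription start site (TSS) of the gene, which is called near a TSS here, or inside its body. This selected 163 of 21639 EZH2 peaks and 69 of 19039 PHF13 peaks, and no peak was assigned to more than 1 potassium channel gene. The peak lists hold no expression values, so neither the activity of these genes nor the identity of the cells was measured.

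Potassium channels let potassium ions cross the membrane down their gradient, which sets the resting potential and ends action potentials, and in epithelial cells of the pancreatic duct they support fluid and bicarbonate secretion. The pore-forming proteins fall into families by how they open: by voltage (KCNA, KCNB, KCNC, KCND, KCNH and KCNQ), by inward rectification (KCNJ), as leak channels with paired pore domains (KCNK), or by calcium or sodium ions (KCNMA, KCNN, KCNT and the related KCNU). Silent subunits (KCNF, KCNG, KCNS, KCNV) form no channel alone but modify KCNB channels, and accessory subunits (KCNAB, KCNE, KCNIP, KCNMB, KCNRG) bind the pore proteins or alter their assembly and gating. PRC2 places the repressive methyl marks on lysine 27 of histone H3, typically over CpG-rich starts of developmental and tissue-restricted genes, and many neuronal and muscle channel genes belong to that group.

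EZH2 peaks lay at the starts of most potassium channel genes. An EZH2 peak near a TSS was found at 60 of the 95 genes (63.2%, 95% Wilson interval 53.1 to 72.2%, covering counting error only), whereas 23.6% of all protein-coding genes were occupied in this way. A PHF13 peak near a TSS was found at 16 of the 95 genes (16.8%, interval 10.6 to 25.6%), beside 21.0% of all protein-coding genes. The EZH2 interval lay wholly above the share of all genes, while the PHF13 interval included it. When gene bodies were added, 64 genes (67.4%) carried EZH2 beside a background of 30.0%, and 25 genes (26.3%) carried PHF13 beside 31.2%. At 27 of the 95 genes neither list had a peak near a TSS or in the body. Of all 20163 protein-coding genes, 6282 had PHF13, 6052 had EZH2 and 2533 had both by this rule. A larger share of all genes than of the potassium channel genes thus had neither.

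Of the 163 EZH2 peaks, 42 covered a TSS, 94 lay within 5 kb of one and 69 lay in a gene body farther away. Per gene, the closest EZH2 peak covered a TSS at 39 of the 60 occupied genes (65.0%), compared with 42.6% of the 4759 occupied protein-coding genes, and its summit, the position of highest coverage, lay downstream of the nearest TSS at 44 of the 60 (73.3%), compared with 58.0%. An EZH2 peak wider than 1 kb near a TSS was present at 28 of the 95 potassium channel genes (29.5%, interval 21.2 to 39.3%), beside 7.04% of all protein-coding genes. Among occupied genes alone, these were 28 of 60 (46.7%), compared with 29.8% of all occupied protein-coding genes. The widest peak per occupied gene had a median of 955 bp in the potassium channel genes and 430 bp in all occupied protein-coding genes. All 60 occupied genes had at least 1 EZH2 peak closer to their own TSS than to that of any other protein-coding gene, although at 5 genes, among them KCNG3, KCNH4, KCNK4 and KCNQ1, every such peak also lay within 5 kb of a start of another protein-coding gene. At the 5 kb limit, the EZH2 peak of KCNJ1 was just inside at 4730 bp, and the next gene outside was KCNMB2 at 15624 bp.

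**Figure D1:**
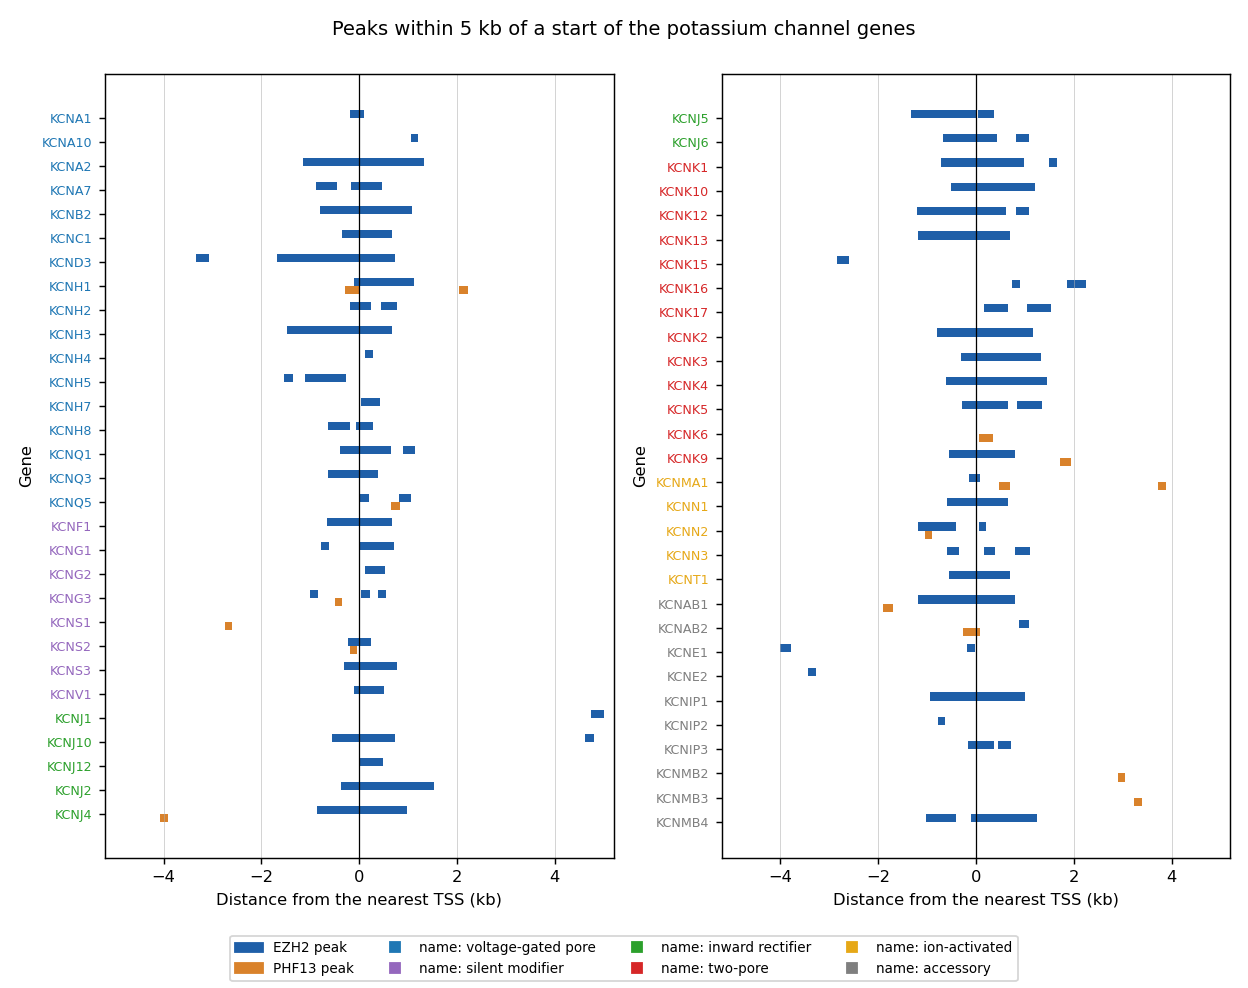
Each row is 1 of 60 of the 64 potassium channel genes with a peak near a start; the x axis gives the distance in kb from the TSS nearest to the peak's summit (positive values are downstream), with EZH2 peaks in blue, PHF13 peaks in orange and the gene names coloured by class. Peaks drawn in 1 row can belong to different starts of the gene. The closest EZH2 peak covers a start at 39 of the 60 genes with EZH2, and the closest PHF13 peak at 2 of the 16 genes with PHF13, KCNH1 and KCNAB2. Over all protein-coding genes occupied by each list this was so at 2028 of 4759 genes for EZH2 and at 1014 of 4231 for PHF13.

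CpG content and gene length were examined beside these shares. The genes were divided into 3 equal groups by the ratio of observed to expected CpG within 500 bp of the annotated 5′ end, with limits drawn over all protein-coding genes. In the group with the most CpG, EZH2 was near a TSS at 27 of 33 potassium channel genes (81.8%, interval 65.6 to 91.4%), compared with 24.5% of all genes of that group. In the middle group the counts were 21 of 31 (67.7%, interval 50.1 to 81.4%) and 25.3%. In the group with the least CpG they were 12 of 31 (38.7%, interval 23.7 to 56.2%) and 21.1%. Among the potassium channel genes the share was lower in each group with less CpG, whereas over all genes it lay between 21.1% and 25.3% in every group. The interval of the middle group overlapped both others, while those of the groups with the most and the least CpG did not overlap. CpG was measured at the annotated 5′ end only, whereas EZH2 was counted at any start. Divided by length in the same way, in the longest group 35 of 46 potassium channel genes carried EZH2 near a TSS (76.1%, compared with 33.4% of all long genes), and in the shortest group 11 of 28 did (39.3%, compared with 18.4%). By number of annotated starts, EZH2 was near a TSS at 20 of 35 genes with 1 to 2 starts (57.1%, compared with 1169 of all 5305 such genes) and at 25 of 36 genes with 6 or more (69.4%, compared with 2360 of 9756). The 6 genes of the CpG-rich group with no EZH2 peak near a start were KCNA3, KCNA6, KCNC4, KCND2, KCNIP4 and KCNJ11.

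**Figure D2:**
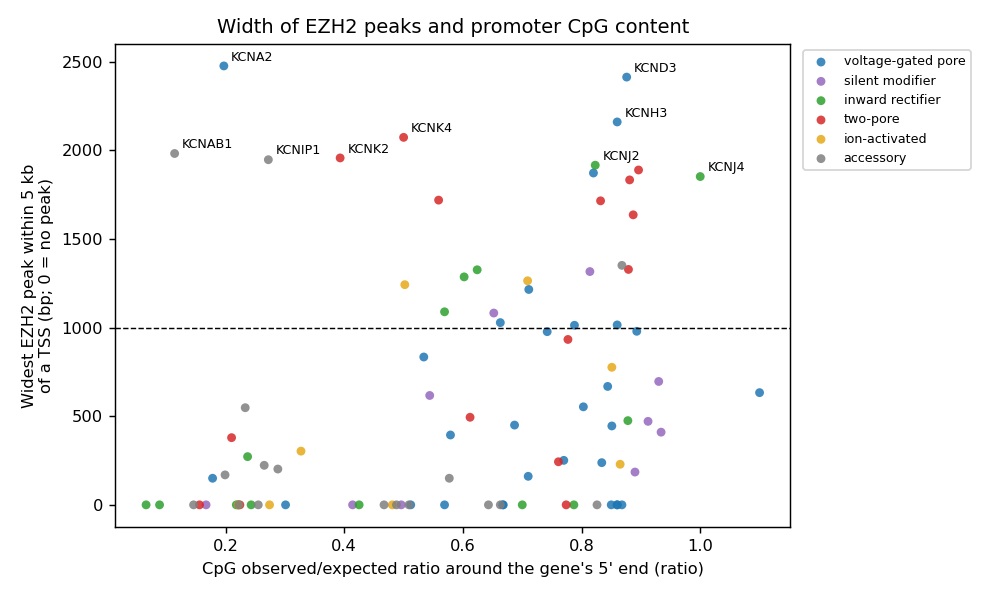
Each point is 1 of the 95 potassium channel genes, coloured by class; the x axis is the CpG observed to expected ratio around the gene's annotated 5′ end and the y axis the width in bp of its widest EZH2 peak near a TSS, with 0 for no peak and a dashed line at 1 kb. Of the 28 genes above the line, 4 (KCNA2, KCNAB1, KCNIP1 and KCNK2) are in the group with the least CpG, and the broad peak of each lies at an internal start, away from the 5′ end at which CpG was measured.

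The 10 widest EZH2 peaks belonged to genes of several families. KCNA2, a Kv1 subunit of axons, had the widest, with 2476 bp, a fold enrichment of 3.86 over the local background and 134 fragments at the summit. KCND3, which carries an A-type current in heart and neurons, followed with 2413 bp and a fold enrichment of 3.32. KCNH3, an ELK-type channel of the forebrain, had 2160 bp (3.54-fold), and KCNB2, a delayed rectifier, 1872 bp (3.79-fold). Leak channels gave KCNK4 (2073 bp, 3.89-fold), KCNK2 (1957 bp, 4.64-fold) and KCNK13 (1889 bp, 4.10-fold), of which KCNK4 and KCNK2 are opened by stretch and arachidonic acid. The remaining peaks were at KCNAB1, a cytoplasmic beta subunit of Kv1 channels (1982 bp, 4.32-fold), at KCNIP1, a calcium-binding partner of Kv4 channels (1947 bp, 3.05-fold), and at KCNJ2, the classical inward rectifier of muscle (1916 bp, 3.42-fold). By −log10 q the strongest was KCNJ4, an inward rectifier of the forebrain, with 47.1 and 121 fragments over a background of 20.5, which placed it at rank 351 of the 21639 EZH2 peaks.

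The sequence under the strongest of these peaks is shown as an exon-free stretch of 150 bases closest to the summit, on the strand of the gene (GRCh37, hg19), with each CpG in capitals. These stretches show what the CpG ratio measures at the broad EZH2 peaks.
KCNJ4 chr22:38851206-38851355, minus strand: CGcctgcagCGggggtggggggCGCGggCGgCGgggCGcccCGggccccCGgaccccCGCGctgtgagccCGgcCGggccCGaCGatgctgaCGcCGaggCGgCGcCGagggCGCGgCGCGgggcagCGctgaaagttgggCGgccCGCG
KCNK4 chr11:64059267-64059416, plus strand: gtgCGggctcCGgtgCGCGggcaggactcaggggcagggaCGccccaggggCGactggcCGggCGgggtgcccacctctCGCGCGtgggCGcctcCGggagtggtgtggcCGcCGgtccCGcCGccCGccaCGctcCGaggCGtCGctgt
KCNA2 chr1:111149723-111149872, minus strand: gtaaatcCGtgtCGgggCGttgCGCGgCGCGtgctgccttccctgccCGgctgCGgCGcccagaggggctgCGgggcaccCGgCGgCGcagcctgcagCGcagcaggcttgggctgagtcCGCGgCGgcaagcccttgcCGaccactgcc
KCNK2 chr1:215255930-215256079, plus strand: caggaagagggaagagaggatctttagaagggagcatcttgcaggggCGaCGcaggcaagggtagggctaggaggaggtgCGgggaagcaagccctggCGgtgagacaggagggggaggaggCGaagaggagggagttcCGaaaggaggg
The KCNJ4 stretch, immediately upstream of the single annotated start, had 28 CpG and 86.0% G and C, and those of KCNK4 and KCNA2 had 22 and 19 CpG. The KCNK2 stretch, 244 bp from the summit and outside the densest part, had only 6. Over 500 bp around the summit, the median CpG ratio of the 28 broad peaks was 0.870. The 1372 EZH2 peaks over 1 kb near a TSS of any protein-coding gene had 0.835, so the high ratio was not particular to potassium channel genes. The median was 0.365 over all 163 EZH2 peaks at potassium channel genes and 0.271 over the whole EZH2 list, which both include narrow and distal peaks.

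The leak channels had the highest share of EZH2 among the 6 classes. EZH2 was near a TSS at 12 of 15 KCNK genes (80.0%, interval 54.8 to 93.0%) and was broad at 8 of them. These 12 included the acid-sensitive channels KCNK3 and KCNK9, the stretch-activated KCNK2, KCNK4 and KCNK10, and KCNK1, KCNK5, KCNK12, KCNK13, KCNK15, KCNK16 and KCNK17. Only KCNK6, KCNK7 and KCNK18 had none, and KCNK6 carried a PHF13 peak in its first coding exon instead, with its summit 141 bp downstream of the TSS (3.17-fold, 30 fragments over 8.77). The same PHF13 peak also lay 2628 bp from a start of YIF1B.

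Among the voltage-gated pore genes EZH2 was near a TSS at 21 of 30 (70.0%, interval 52.1 to 83.3%). They included KCNQ1, which carries the slow repolarising current of heart, the M-current genes KCNQ3 and KCNQ5 and the delayed rectifier KCNB2. In the KCNH family, which includes the cardiac repolarising channel KCNH2, 7 of 8 genes were occupied, with KCNH6 as the exception. The KCNA family had 4 of 8 (KCNA1, KCNA2, KCNA7 and KCNA10) and the A-type KCND family 1 of 3 (KCND3). The intervals of KCNH (52.9 to 97.8%), KCNA (21.5 to 78.5%) and KCND (6.15 to 79.2%) overlapped, so no difference between these families is read. KCNC1, a fast delayed rectifier, was also occupied. No KCNA, KCNC or KCND gene had a PHF13 peak near a TSS or in the body, beside 26.3% of all potassium channel genes and 31.2% of all protein-coding genes. With so few genes, no trait of these families is read from the absence. Silent subunits had EZH2 at 7 of 10 genes (70.0%, interval 39.7 to 89.2%), namely KCNF1, KCNG1, KCNG2, KCNG3, KCNS2, KCNS3 and KCNV1.

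Inward rectifiers had EZH2 near a TSS at 7 of 15 genes (46.7%, interval 24.8 to 69.9%), but the peak was broad at 5 of those 7. They were KCNJ2, KCNJ4 and KCNJ12 of the strongly rectifying group, KCNJ5 and KCNJ6 of the G-protein-gated group, and KCNJ1 and KCNJ10 of the transporting group. KCNJ12 has a near-identical copy, so its value is uncertain. The 24-base words around its EZH2 summit had a median copy number of 1 in the assembly, but such a count cannot include a copy that the assembly lacks. Genes of the ATP-sensitive channel pores, KCNJ8 and KCNJ11, had neither list. Ion-activated channels had EZH2 at 5 of 8 genes (62.5%, interval 30.6 to 86.3%), namely KCNMA1, KCNN1, KCNN2, KCNN3 and KCNT1, and not at KCNN4, the intermediate-conductance channel of epithelia and lymphocytes, KCNT2 or KCNU1. Accessory subunits had EZH2 at 8 of 17 (47.1%, interval 26.2 to 69.0%). With only 1 start per gene, the accessory count was 3 of 17 (17.6%), below the 18.6% of all protein-coding genes under that setting, while the other 5 classes had between 37.5% and 73.3%. Intervals of all classes overlapped each other, so an order of the classes could not be told from these counts.

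**Figure D3:**
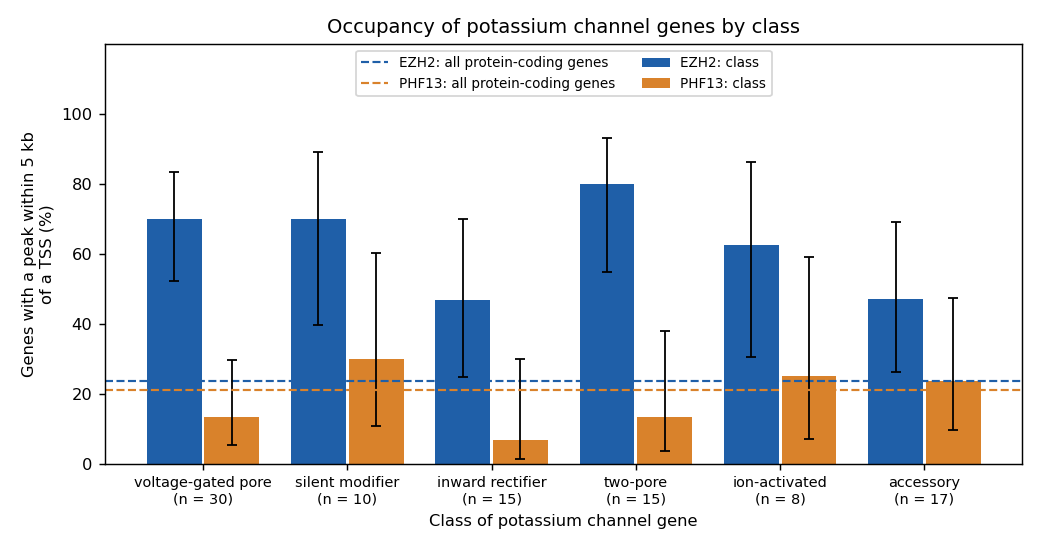
Bars give the percentage of genes of each class with EZH2 (blue) or PHF13 (orange) near a TSS, error bars the 95% Wilson interval (counting error only), and dashed lines the share of all protein-coding genes, 23.6% for EZH2 and 21.0% for PHF13. All 6 blue bars exceed the blue line and each interval lies above it, from 24.8% at its lowest for the inward rectifiers, whereas every orange interval includes the orange line. With 1 start per gene, which is not drawn, the accessory share is 17.6% and the share of all genes 18.6%.

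Promoter CpG differed between the classes, with median ratios of 0.779 for the voltage-gated pore genes, 0.761 for the KCNK genes, 0.733 for the silent subunits, 0.569 for the inward rectifiers, 0.492 for the ion-activated channels and 0.288 for the accessory subunits. In the middle and high CpG groups together, EZH2 was near a TSS at 10 of 11 KCNK genes, 19 of 27 voltage-gated pore genes, 7 of 8 silent subunits, 6 of 8 inward rectifiers and 4 of 4 ion-activated genes, but at 2 of 6 accessory genes. In the low group it was near a TSS at 2 of 4 KCNK genes, 2 of 3 voltage-gated pore genes, 0 of 2 silent subunits, 1 of 7 inward rectifiers, 1 of 4 ion-activated genes and 6 of 11 accessory genes. The part of CpG in the differences between classes was not tested.

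Potassium channel genes that neighbour each other on the chromosome were compared as a description. With genes grouped when their bodies lay within 200 kb of each other, there were 9 groups with 21 genes, and in 6 groups some genes were occupied near a TSS and others were not. Of the 21 genes 14 were occupied, and with 63.2% of all potassium channel genes occupied, mixed groups of this size are common whatever the position, so nothing about neighbours is read from this number. On chromosome 1, KCNA2 had its 2476 bp peak and KCNA10 a narrow peak of 150 bp, while KCNA3, with a CpG ratio of 0.860, had none. On chromosome 12, KCNA1 was occupied by peaks of up to 238 bp between KCNA6 and KCNA5, which had none. KCNJ2 carried a 1916 bp peak beside an unoccupied KCNJ16, KCNJ10 a 1286 bp peak beside KCNJ9, and KCNJ6 a 1089 bp peak beside KCNJ15. KCNIP1 was occupied by 9 EZH2 peaks, while KCNMB1, which lies inside the KCNIP1 locus on the other strand, had none. In the remaining 3 groups every gene was occupied, namely KCNJ1 with KCNJ5, KCNE1 with KCNE2, and KCNK5 with KCNK16 and KCNK17. Within the last, widths decreased from 933 bp at KCNK5 to 494 bp at KCNK17 and 379 bp at KCNK16. The KCNE2 peak lay in repeated sequence, with a median of 321 copies of its 24-base words in the assembly.

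PHF13 peaks at the potassium channel genes were narrow and mostly intronic. Of the 69 peaks, 58 had the summit in an intron, 6 in an exon and 5 outside the gene, and 19 lay within 5 kb of a TSS. Only peaks near a TSS or in a gene body were assigned, which favours introns, and the intronic share over all protein-coding genes was not counted. The median width of the 69 peaks was 173 bp, close to the 188 bp of the whole PHF13 list. Their fold enrichment ranged from 2.45 to 4.87, and 12 of them (17.4%) reached a −log10 q of 5, compared with 30.4% of the whole PHF13 list. The CpG ratio around the summit was at least 0.6 at 8 of the 69 peaks (11.6%, compared with 14.1% of the whole list). Within 5 kb of a TSS it was so at 7 of 19 (36.8%, compared with 41.6%).

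The strongest PHF13 peaks were at KCNAB2, a Kv1 beta subunit. The first covered an internal TSS with 35 fragments over a background of 6.60 (4.74-fold, −log10 q 10.8), and the second had its summit 187 bp upstream of another KCNAB2 start (4.86-fold, 32 fragments, −log10 q 10.2). The second peak also lay 241 bp from a start of NPHP4. These ranked 1901 and 2048 of the 19039 PHF13 peaks, which is within the upper 9.98% and 10.8% of the list. KCNMA1, the large-conductance calcium-activated channel, held 3 of the 10 strongest, with −log10 q of 8.92, 5.94 and 5.22. KCNMB2, a beta subunit of that channel, had 7.30, KCNQ1 6.74, KCNQ5 6.49 and KCNS2 5.94.

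The stretches below contrast the CpG-rich PHF13 peak upstream of the KCNAB2 start with the CpG-poor intronic PHF13 peaks of KCNMB2 and KCNMA1. Each is the exon-free 120 bases closest to the summit, on the gene's strand (GRCh37, hg19), with CpG in capitals.
KCNAB2 chr1:6052075-6052194, plus strand: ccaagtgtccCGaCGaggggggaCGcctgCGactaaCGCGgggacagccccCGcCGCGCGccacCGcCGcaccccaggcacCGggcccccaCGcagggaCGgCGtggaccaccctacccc
KCNMB2 chr3:178230130-178230249, plus strand: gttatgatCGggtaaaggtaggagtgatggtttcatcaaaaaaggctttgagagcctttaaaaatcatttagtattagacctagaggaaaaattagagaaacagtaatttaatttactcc
KCNMA1 chr10:79065526-79065645, minus strand: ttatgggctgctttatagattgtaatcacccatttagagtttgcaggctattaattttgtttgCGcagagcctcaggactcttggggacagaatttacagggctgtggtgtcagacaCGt
The KCNAB2 stretch held 16 CpG in 120 bases, the KCNMB2 stretch 1 and the KCNMA1 stretch 2. The latter 2 are closer to the usual case, since the median CpG ratio of the 69 PHF13 peaks was 0.197, compared with 0.223 in the whole list.

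AP-1 is a dimer of Fos and Jun proteins that binds the letters TGACTCA or TGAGTCA, which are reverse complements and were therefore searched on both strands. A match within 100 bp of the summit was present at 3 of 69 PHF13 peaks of potassium channel genes (4.35%, interval 1.49 to 12.0%), compared with 11.2% of all PHF13 peaks. In windows of the same length 1000 bp to either side, 7.97% of the windows at potassium channel genes and 2.96% of those at all PHF13 peaks held a match. All 3 matches were intronic and are shown with 30 bases on either side, the match in capitals, because they are the sites on which this count rests (GRCh37, hg19, gene strand).
KCNMA1 chr10:79389307-79389373, minus strand: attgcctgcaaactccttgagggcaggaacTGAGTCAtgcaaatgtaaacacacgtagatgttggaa
KCNQ1 chr11:2763214-2763280, plus strand: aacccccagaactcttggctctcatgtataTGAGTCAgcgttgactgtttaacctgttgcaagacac
KCNQ5 chr6:73497416-73497482, plus strand: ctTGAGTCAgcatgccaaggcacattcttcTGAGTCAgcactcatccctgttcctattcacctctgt
The KCNQ5 stretch contains 2 matches. The KCNQ1 match lies 93 bp from the summit and outside the called peak, which ends at 2763232. Among EZH2 peaks of potassium channel genes 4 of 163 (2.45%) held a match, and 2.31% of all EZH2 peaks did.

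PHF13 and EZH2 were both near a TSS at 12 of the 95 potassium channel genes (12.6%, interval 7.38 to 20.8%), beside 5.33% of all protein-coding genes. Of the 16 genes with PHF13 near a TSS 75.0% also had EZH2, whereas 20.0% of the 60 genes with EZH2 also had PHF13. Over all protein-coding genes these shares were 25.4% and 22.6%. Among all 95 potassium channel genes 63.2% had EZH2 and 16.8% had PHF13, close to the 75.0% and 20.0%. The excess over all protein-coding genes is therefore not read as joint occupancy beyond the high EZH2 share of these genes. The 12 genes came to 5 at a −log10 q of at least 3 (2.92% of all genes), to 2 at 5 (1.21%) and to 6 with 1 start per gene (2.4%). With gene bodies included, both lists occurred at 21 genes (22.1%), beside 12.6% of all. Among the 12 genes were the voltage-gated KCNH1 and KCNQ5, the silent KCNG3 and KCNS2, the inward rectifier KCNJ4, the leak channel KCNK9, the calcium-activated KCNMA1 and KCNN2, and the beta subunits KCNAB1 and KCNAB2. The 4 genes with PHF13 alone near a TSS were KCNK6, KCNMB2, KCNMB3 and KCNS1, and at the 5 kb limit KCNJ4 was inside at 3904 bp and KCNJ1 just outside at 6029 bp.

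At 6 of the 12 genes the closest peaks of the 2 lists lay within 1 kb of each other (50.0%, compared with 34.5% of the 1075 protein-coding genes with both). Among these 6, they overlapped at KCNH1, KCNN2 and KCNS2 and were separated by 358 bp at KCNG3 and 446 bp at KCNQ5. At KCNJ4 the gap was 3033 bp. At KCNAB2, KCNK9, KCNAB1 and KCNMA1 the peaks belonged to different starts of the gene, with gaps of 20633 bp, 87814 bp, 161394 bp and 287387 bp. A gene count of both lists therefore covered a shared site at some of these genes and distant sites at others.

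Overlap of at least 1 bp was found for 4 of the 69 PHF13 peaks (5.80%), and all 4 were single-copy by 24-base words. In the whole PHF13 list 11.7% of peaks overlapped an EZH2 peak, but 2.67% of the single-copy peaks did. At potassium channel genes it was 4 of the 60 single-copy PHF13 peaks (6.67%). The whole list also holds peaks away from genes, which were not assigned here, and 4 peaks are too few to read an excess from. At KCNH1, an EAG channel, the PHF13 summit lay 38 bp upstream of the TSS (3.09-fold, 17 fragments) and 721 bp from the summit of a broad EZH2 peak of 1215 bp, with 85 bp shared. At KCNS2, a silent subunit, the 144 bp PHF13 peak lay wholly inside a 471 bp EZH2 peak, with summits 110 bp upstream and 88 bp downstream of the TSS. At KCNN2, a small-conductance calcium-activated channel, the 150 bp PHF13 peak lay wholly inside a 776 bp EZH2 peak and the summits were 153 bp apart. At KCNG3 the shared 75 bp lay in an intron, 30374 bp downstream of the TSS by the PHF13 summit, inside VDAC1P13, a processed pseudogene that is a copy of the transcript of a mitochondrial channel gene. At the KCNG3 start, PHF13 was 348 bp from the KCNG3 TSS and 95 bp from a start of MTA3, which is transcribed in the opposite direction.

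The sequences shared by both peaks are shown for KCNG3 and, without the untranslated part, for KCNN2, on the gene's strand (GRCh37, hg19) with CpG in capitals, since these carry the overlap.
KCNG3 chr2:42690752-42690826, minus strand: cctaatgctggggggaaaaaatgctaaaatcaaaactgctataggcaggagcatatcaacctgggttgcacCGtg
KCNN2 chr5:113696826-113696865, plus strand: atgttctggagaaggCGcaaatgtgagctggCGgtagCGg
The KCNN2 stretch begins at the first coding base of an annotated KCNN2 transcript and holds 3 CpG in 40 bases, while the KCNG3 stretch holds 1 in 75 bases.

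Inside the gene bodies, the density of PHF13 peaks was unequal. Over the summed length of the 95 genes, 13.2 Mb, there were 4.83 PHF13 peaks per Mb, compared with 6.86 per Mb over all protein-coding genes. For EZH2 there were 11.6 per Mb, compared with 7.49. In the longest group of genes, PHF13 had 4.98 per Mb beside 6.15 for all such genes, and EZH2 9.71 beside 6.33. These counts include body peaks near a TSS, and only 69 EZH2 peaks lay in a body farther than 5 kb from one. The EZH2 density therefore partly repeats the result at the starts, and a density without those peaks was not computed. KCNMA1 had the most PHF13 peaks, 13 in 0.769 Mb (16.9 per Mb), followed by KCNMB2 with 8 (14.0 per Mb). KCNAB1, KCNQ5 and KCNQ1 had 12.0, 10.4 and 12.4 per Mb. In contrast, KCNIP4, the longest of the genes at 1220167 bp, had 1 peak of each list (0.820 per Mb). KCNIP1, KCNN3 and KCNQ1 had the most EZH2 peaks, 9 each. At KCNN3, a small-conductance channel, this came to 52.1 per Mb, and its strongest EZH2 peak was intronic, 52189 bp from the nearest TSS (5.02-fold, 70 fragments over 13.2).

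**Figure D4:**
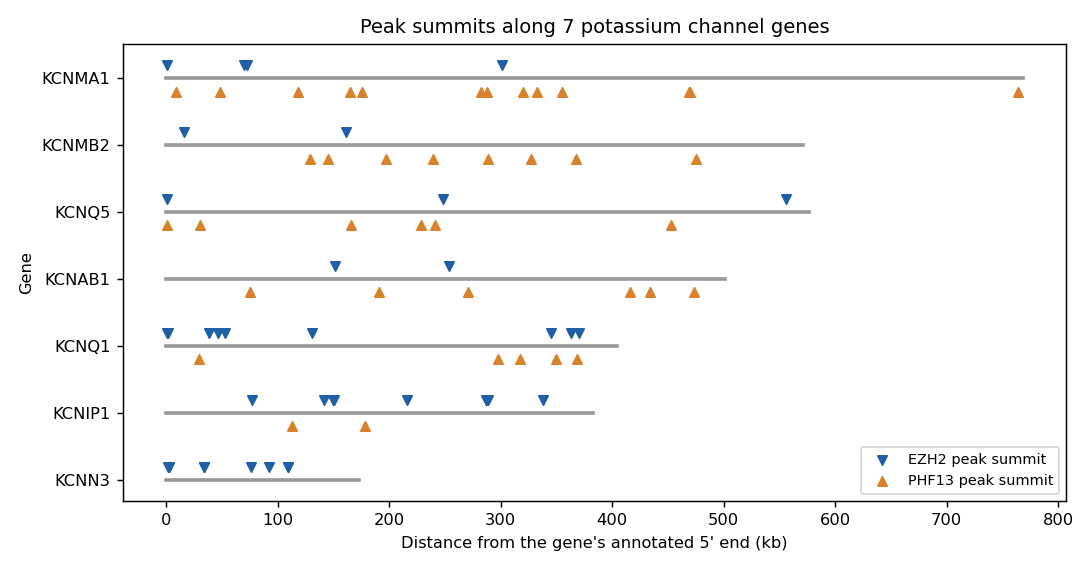
Grey lines are the bodies of 7 potassium channel genes drawn to scale from the annotated 5′ end, with the x axis in kb; blue and orange triangles mark the summits of EZH2 and PHF13 peaks. KCNMA1 holds 13 PHF13 and 4 EZH2 summits spread over 0.769 Mb, whereas KCNN3 holds 9 EZH2 summits and no PHF13 summit in 0.173 Mb.

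The heights of the peaks give the depth behind these calls. The fold enrichment and the p-value of each peak together determine how many fragments covered the summit and how many the local background predicted, and both were solved for. PHF13 peaks at potassium channel genes rested on 14 to 35 fragments (median 19.0) and EZH2 peaks on 15 to 152 (median 32.0). The background comes from the input, and it was high at the broad EZH2 peaks near a TSS, with a median of 20.1 fragments compared with a genome-wide floor of 4.42; over all protein-coding genes the broad peaks had 18.3. The part of this higher input in the calls was not tested. The fold enrichment of the 28 broad peaks had a median of 3.51, compared with 3.93 for the broad peaks of all protein-coding genes.

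**Figure D5:**
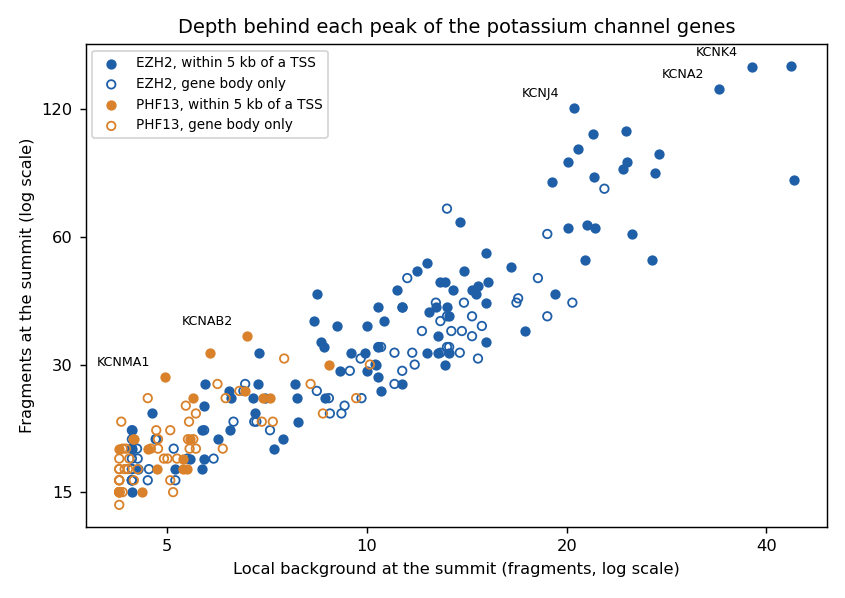
Each point is 1 peak at a potassium channel gene, with the local background at the summit on the x axis and the number of fragments at the summit on the y axis, both on log scales; filled points lie within 5 kb of a TSS and open points in the gene body only. All PHF13 points lie at or below 35 fragments and 10.1 background fragments, whereas EZH2 points reach 152 fragments at a background of 43.6.

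Genes of other channel families were counted in the same way. Voltage-gated calcium channel genes had EZH2 near a TSS at 18 of 26 (69.2%, interval 50.0 to 83.5%), close to the 63.2% of the potassium channel genes. Voltage-gated sodium channel genes had it at 6 of 14 (42.9%), hyperpolarization-activated channel genes at 2 of 4, and the CLCN genes, which encode chloride channels and exchangers, at 1 of 9 (11.1%, interval 1.99 to 43.5%). Partners of potassium channels that are not named KCN had EZH2 at 4 of 8, namely ABCC8, DPP6, LRRC26 and LRRC55. Across the 4 other channel families together EZH2 was near a TSS at 27 of 53 genes (50.9%, interval 37.9 to 63.9%) and PHF13 at 10 of 53 (18.9%). For both lists the interval of the 4 families together overlapped that of the potassium channel genes, so a difference from them together could not be told at this number of genes. The EZH2 interval of the CLCN genes alone, from 9 genes, lay below the 53.1 to 72.2% of the potassium channel genes.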

How the data were processed

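ChIP-seq peaks of 1 PHF13 and 1 EZH2 library of PANC-1 were analysed; the input served only as the control. Per the methods and processing notes, the authors trimmed reads with Trim Galore 0.4.1, aligned them to hg19 with Bowtie2 2.4.1, removed duplicates (Picard) and ran MACS2 2.2.7.1 for peaks. The deposited columns are a score, the fold enrichment at the summit, and the p-value and q-value as −log10. The methods state a stricter q limit for PHF13 and broad calling for EZH2, whereas the deposited lists are in narrow-peak format and reach a −log10 q of 1.30 and 1.31; they were used as deposited. Some named items are not reported here.

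All 19039 and 21639 peaks lay inside the GRCh37 chromosomes. TSSs were all transcript 5′ ends of GENCODE 44 mapped to GRCh37; the 20163 protein-coding genes were the background. Wilson intervals, the AP-1 search, CpG ratios and 24-base copy numbers used Python 3.11.15, SciPy 1.17.1 and pysam 0.24.0, and the code was tested on simulated data. Fragments at the summit were solved from fold and p for 100% of peaks. A CpG ratio was undefined for 19 genes. Genes given values were those with both lists near a TSS, the 10 widest EZH2 peaks, the 10 strongest PHF13 peaks, overlapping peaks, neighbouring genes and the genes with the most peaks; other named values were chosen after they were seen. Members and lists were chosen with earlier results of these data known. Alternatives used other distances, q limits, copy number, starts, overlap and motif windows.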

Additional observations from a re-analysis of the deposited data

How the results depend on the processing

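Of 35 recounts of the main results, 25 stayed within 1.5 times the main count. The count of potassium channel genes with EZH2 near a TSS, 60, was between 48 and 60 under all 7 alternatives, and its share stayed above that of all protein-coding genes in each. Counts with PHF13 moved more. With a distance of 1 kb, PHF13 was near a TSS at 9 genes instead of 16 (all protein-coding genes 13.6% instead of 21.0%), and with 1 start per gene also at 9 (all genes 14.6%). At a −log10 q limit of 5 it was near a TSS at 4 genes (all genes 6.62%), and near a TSS or in the body at 7 instead of 25 (all genes 11.0% instead of 31.2%); at a limit of 3 the latter count was 15 (all genes 21.9%). Genes with both lists near a TSS, 12, came to 5 at a −log10 q limit of 3, to 2 at 5 and to 6 with 1 start per gene, while the share of all genes went from 5.33% to 2.92%, 1.21% and 2.4%. PHF13 peaks overlapping EZH2, 4 of 69, came to 2 of 35 when the limit of 3 was set on both lists. The count thus fell along with the number of peaks, and the share of the whole list under that limit was not counted. AP-1 matches, 3 of 69, came to 5 of 69 in a window of 400 bp. A longer window can hold more matches by its length alone, and the share of all PHF13 peaks in that window was not counted. PHF13 peaks at these genes rest on at most 35 fragments, and 1 library per antibody gives no replicate check. Within classes, 37 of 42 EZH2 recounts stayed within 1.5 times; the others were in the ion-activated class (3 instead of 5) and the accessory class (5 or 3 instead of 8). The accessory share with 1 start per gene, 17.6%, was below the 18.6% of all genes; every other class share exceeded that of all genes under each of the 7 alternatives. No paired analysis was possible because each antibody had 1 library.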

Other observations

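Non-coding genes that carry a KCN name were counted after their values were seen. Of 26 such long non-coding RNA genes, 6 had an EZH2 peak (23.1%) and 4 a PHF13 peak (15.4%) within 5 kb of the annotated 5′ end, compared with 12.7% and 10.6% of all 18702 long non-coding RNA genes. The PHF13 peaks, at KCNH1-IT1, KCNAB1-AS2, KCNQ5-DT and KCNMA1-AS3, were all already counted for the coding genes. So were the EZH2 peaks, apart from that of KCNQ1-AS1. These shares are therefore not a result separate from that of the coding genes. An EZH2 peak covered the 5′ end of KCNH1-IT1, KCNJ2-AS1 and the read-through transcript KCNK4-TEX40, in each case the broad EZH2 peak of the coding gene. At KCNQ5-DT, which starts beside KCNQ5, the EZH2 peak lay 113 bp and the PHF13 peak 770 bp from the 5′ end. The 5′ end of KCNQ1OT1, the imprinted antisense RNA inside KCNQ1, was 90035 bp from the nearest EZH2 peak and 41779 bp from the nearest PHF13 peak, although KCNQ1 itself held 9 EZH2 peaks and 5 PHF13 peaks.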
